A study of Rattus norvegicus with 30 samples.

Results

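The levels of 9 genes were followed through 30 polyA RNA libraries of rat dorsal hippocampus: Galnt5, Zfp347, LOC310926, Abracl, Tspyl2, Fam133b, Rbm20, Plk3 and Asic4. They are 9 of 17455 rows of the count table. They were selected on their measured levels in these libraries, because the difference between genotypes was large and ran the same way in every group, so the genotype values below describe them and carry no test. All 9 passed the filter on low counts, as did 12547 rows in all. Galnt5 passed through its alzheimer libraries only, with 30 to 77 counts each, against 1 to 9 in each wildtype library. The alzheimer libraries come from TgF344-AD rats, a transgenic line that carries mutant human APP under the mouse prion promoter, and the others come from wildtype rats. Rats of each genotype ate chow, the standard diet, or a western diet. The 8 groups of sex, genotype and diet hold 4 libraries each, except that females on the western diet have 3 per genotype. Both genotypes thus have 15 libraries, 8 on chow and 7 on the western diet, from 2 cohorts of 14 and 16 libraries. The labels give no age and do not say whether each library is a separate animal, so p-values measure the spread between these libraries.

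These genes share no known pathway. Galnt5 codes for an enzyme that starts mucin-type O-glycosylation in the Golgi by placing a sugar on serine or threonine. Zfp347 codes for a zinc finger protein, a class that binds DNA, and Tspyl2 is an X-linked gene of the nucleosome assembly family. Abracl codes for a small protein linked to actin filament turnover. Rbm20 is a splicing regulator best known for its action on titin in heart muscle, and Plk3 is a Polo-like kinase of the stress response. Asic4 belongs to the acid-sensing ion channels. Fam133b has little known function, and LOC310926 carries only a locus symbol.

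Upstream sequence was at hand for 6 of the 9 genes, from RefSeq on the assembly GRCr8. Shown are the 250 bases before the start site of 4 genes. Galnt5 and Zfp347 had the largest differences between genotypes, Tspyl2 held the most motif matches, and Plk3 is compared below with early response genes. No source used here names the build behind the counts, and these need not be the starts in use in these rats. Both strands were searched for 5 motifs: the TATA box TATAAA, the CCAAT box CCAAT, the GC box GGGCGG, the core of the cAMP response element TGACG and the E-box CACGTG. Capitals mark the matches.
Galnt5, chr3:62982215-62982464, plus strand: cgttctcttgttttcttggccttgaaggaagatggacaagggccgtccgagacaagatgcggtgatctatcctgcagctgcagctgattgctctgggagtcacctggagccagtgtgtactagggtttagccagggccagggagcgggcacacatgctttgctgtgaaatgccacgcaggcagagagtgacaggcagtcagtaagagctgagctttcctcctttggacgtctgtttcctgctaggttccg
Zfp347, chr7:8117749-8117998, plus strand: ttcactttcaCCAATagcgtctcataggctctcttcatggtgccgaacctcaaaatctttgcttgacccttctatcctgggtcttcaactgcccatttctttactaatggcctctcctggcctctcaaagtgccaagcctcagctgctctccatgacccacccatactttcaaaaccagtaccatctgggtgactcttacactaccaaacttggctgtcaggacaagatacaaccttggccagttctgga
Tspyl2, chrX:24924463-24924712, minus strand: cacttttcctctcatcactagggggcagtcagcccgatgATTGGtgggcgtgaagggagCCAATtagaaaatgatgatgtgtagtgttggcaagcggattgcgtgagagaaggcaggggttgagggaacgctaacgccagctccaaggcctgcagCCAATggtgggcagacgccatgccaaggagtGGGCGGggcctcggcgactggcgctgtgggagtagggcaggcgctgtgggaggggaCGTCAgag
Plk3, chr5:135848901-135849150, minus strand: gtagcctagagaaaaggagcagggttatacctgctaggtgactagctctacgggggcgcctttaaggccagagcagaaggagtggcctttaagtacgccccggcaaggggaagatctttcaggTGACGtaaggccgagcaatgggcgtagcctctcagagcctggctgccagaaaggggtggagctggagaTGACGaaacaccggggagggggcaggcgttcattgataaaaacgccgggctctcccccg
Galnt5 held none of the 5 motifs in this window and Zfp347 a single CCAAT box. Tspyl2 held 3 CCAAT boxes, 1 GC box and 1 TGACG, with TGACG and 1 of the CCAAT boxes read on the opposite strand. Plk3 held 2 copies of TGACG, 127 to 123 and 59 to 55 bases before the start. Over all 6 promoters CCAAT was present in 3, GGGCGG in 2 and TGACG in 2, against 34.0%, 30.5% and 18.2% of the 33469 upstream windows of this length in the RefSeq table. TATAAA and CACGTG were in 0 of the 6, and in 12.9% and 5.59% of all windows. No motif was thus present in all 6. GC content was 55.2% for Galnt5, 48.4% for Zfp347, 60.8% for Tspyl2 and 58.8% for Plk3, with a median of 51.2% over all windows.

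The libraries held from 13931152 to 31418405 counts, with a median of 17761343. App matched the genotype labels in every library, at 3137 to 3398 CPM in alzheimer and 1548 to 1782 CPM in wildtype, where CPM is the count divided by the TMM-scaled library size. That row does not separate the rat gene from the human transgene. The labelled tissue held its markers, with a summed level of 5939 to 6851 CPM for 6 neuronal genes and 1748 to 2181 CPM for 7 genes of the hippocampal subfields. Some cell type markers moved with genotype in edgeR's test. Endothelial and pericyte markers were lower in alzheimer for 4 of 6 genes (sum 263 to 324 against 264 to 369 CPM), microglial markers for 2 of 6 (243 to 307 against 247 to 335 CPM) and subfield markers for 2 of 7. Neurons had 1 of 6 markers higher, oligodendrocytes 1 of 6 lower and astrocytes 1 of 6 in each direction. Choroid plexus markers had 0 of 7 tested genes called, while their sum ran from 5.54 to 67.3 CPM in alzheimer and from 5.30 to 40.7 CPM in wildtype. The part of these cells in the differences below was not tested. In bulk tissue, fewer cells of a type and less RNA per cell cannot be told apart.

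For 6 of the 9 genes the alzheimer and wildtype libraries did not overlap. Galnt5, LOC310926, Abracl and Tspyl2 were higher in every alzheimer library than in any wildtype library, and Zfp347 and Fam133b were lower. Among all genes tested, 20 (0.159%) separated the 30 libraries in this way, 0.128% of all genes being higher in alzheimer and 0.0319% lower. The count of 6 is set by the choice of members, and nothing is read from it. Rbm20, Plk3 and Asic4 overlapped between genotypes. A lack of overlap is not an on-off switch: Zfp347, LOC310926, Abracl, Tspyl2 and Fam133b had 19 counts or more in every library of both genotypes, while Galnt5 had 1 to 9 counts in wildtype libraries. The plot of levels by library shows all 9 genes.

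**Figure D1:**
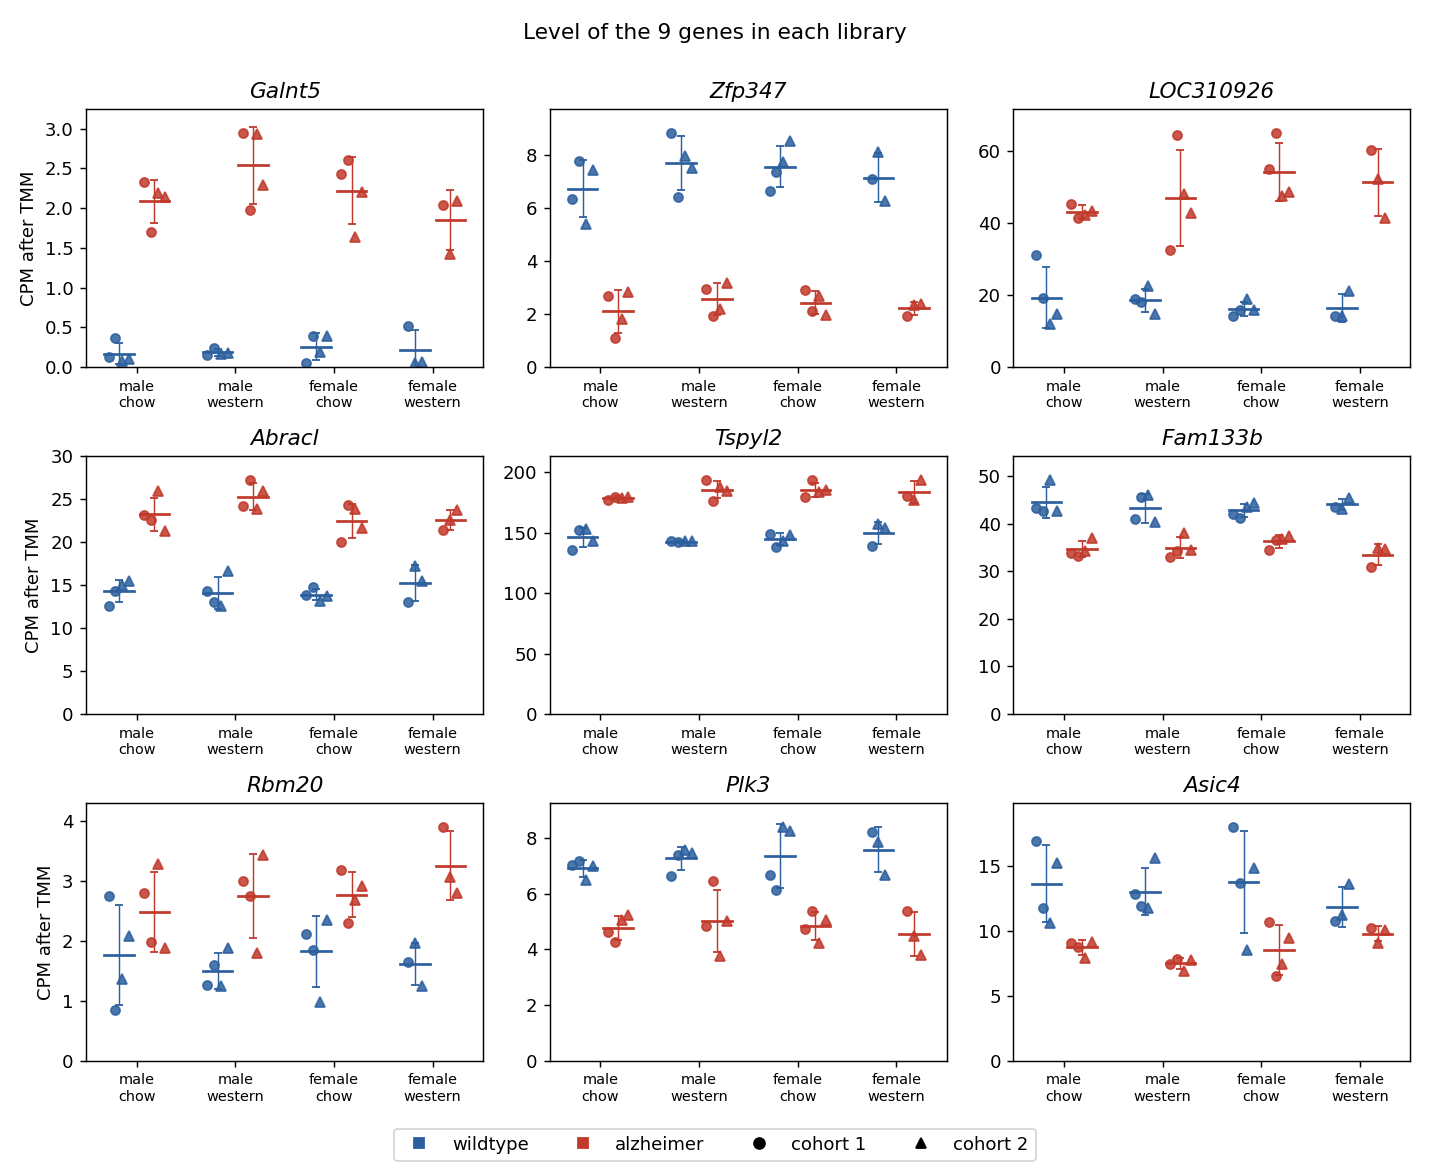
Level of the 9 genes in CPM after TMM scaling (linear axes from 0), by sex and diet. Each point is a library, with circles for cohort 1 and triangles for cohort 2, blue for wildtype and red for alzheimer; bars are mean ± SD of each group of 3 or 4 libraries. Red and blue points do not overlap for Galnt5, Zfp347, LOC310926, Abracl, Tspyl2 and Fam133b, and they overlap for Rbm20, Plk3 and Asic4.

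Galnt5 had the largest fold change of the 9 genes, over a very low level in wildtype. In alzheimer on chow its CPM was 2.33, 1.70, 2.18 and 2.14 in males and 2.43, 2.60, 1.64 and 2.20 in females. On the western diet it was 2.95, 1.97, 2.93 and 2.29 in males and 2.04, 1.42 and 2.08 in females. In wildtype on chow it was 0.131, 0.362, 0.0719 and 0.107 in males and 0.0541, 0.396, 0.185 and 0.392 in females. Wildtype libraries on the western diet stood at 0.147, 0.242, 0.170 and 0.176 in males and 0.510, 0.0560 and 0.0595 in females. The lowest alzheimer library, at 1.42 CPM, thus stood 2.78-fold above the highest wildtype library, at 0.510 CPM. The level in wildtype rested on few reads: between 1 and 9 counts per library and 56 in all, with 0 of 15 libraries at 0, against 30 to 77 counts and 621 in all in alzheimer. The mean was 2.19 ± 0.431 CPM in alzheimer and 0.204 ± 0.145 CPM in wildtype (SD, n = 15 each), a log2 fold change of 3.37 with a 95% interval from 2.94 to 3.80. Between wildtype libraries the coefficient of variation was 71.2%, and between alzheimer libraries 19.7%.

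Zfp347 was the mirror case, detected well in both genotypes and higher in wildtype. Its CPM in wildtype males was 6.35, 7.77, 5.40 and 7.42 on chow and 8.85, 6.40, 7.97 and 7.52 on the western diet. Wildtype females had 6.65, 7.35, 7.72 and 8.52 on chow and 7.09, 8.12 and 6.25 on the western diet. Alzheimer libraries had a lowest value of 1.08, a median of 2.34 and a highest value of 3.18 CPM. The lowest wildtype library was 1.70-fold above the highest alzheimer library. Here alzheimer libraries still held 19 to 92 counts each, so the gene was still detected there. The log2 fold change was −1.64 (95% interval −1.85 to −1.44). Zinc finger genes have many related copies, and no source used here says how reads shared between copies were counted.

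LOC310926 had a mean 2.75-fold higher in alzheimer but came close to overlapping. Its lowest alzheimer value was 32.5 CPM, in male_alzheimer_western replicate 1, and its highest wildtype value 31.0 CPM, in male_wildtype_chow replicate 4, a ratio of 1.05. Each was the extreme of a widely spread group. The other 3 male alzheimer western libraries had 64.4, 47.9 and 42.7 CPM, and the other 3 male wildtype chow libraries had 19.2, 11.9 and 14.8 CPM. Medians were 47.4 CPM in alzheimer and 15.9 CPM in wildtype, and the log2 fold change was 1.47 (95% interval 1.28 to 1.66). Counts per library ran from 166 to 1743, so counting error was small beside the spread between libraries, a within-group SD of 0.32 on the log2 scale.

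Abracl and Tspyl2 had smaller differences with little spread. Abracl ran from 20.1 to 27.3 CPM in alzheimer, with a median of 23.8, and from 12.5 to 17.2 CPM in wildtype, with a median of 14.3. Its log2 fold change was 0.70 (95% interval 0.60 to 0.79), with a within-group SD of 0.13 in log2 CPM. For Tspyl2 the alzheimer libraries lay between 176 and 194 CPM, with a median of 180, and the wildtype libraries between 136 and 157 CPM, with a median of 143. The log2 fold change of 0.33 (95% interval 0.29 to 0.38) is a 1.26-fold ratio of means, beside a within-group SD of 0.054 in log2 CPM. Each library held 2077 to 5687 counts of Tspyl2.

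Fam133b was lower in alzheimer by a similar small step. It ran from 31.0 to 38.1 CPM in alzheimer, with a median of 34.6, and from 40.3 to 49.3 CPM in wildtype, with a median of 43.3. The log2 fold change was −0.33 (95% interval −0.38 to −0.27), and the lowest wildtype library was 1.06-fold above the highest alzheimer library. FAM133 genes have related copies too, and Fam133a had no row in the count table.

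Rbm20, Plk3 and Asic4 shifted without separating. Rbm20 ran from 1.79 to 3.91 CPM in alzheimer (median 2.80) and from 0.844 to 2.75 CPM in wildtype (median 1.64), and 5 alzheimer and 7 wildtype libraries lay in the shared range. Its counts were low, 14 to 101 per library, and its log2 fold change was 0.74 (95% interval 0.45 to 1.03). Plk3 ran from 3.75 to 6.46 CPM in alzheimer and from 6.12 to 8.40 CPM in wildtype, with a log2 fold change of −0.60 (95% interval −0.75 to −0.45). Its overlap came from 2 libraries, male_alzheimer_western replicate 6 at 6.46 CPM and female_wildtype_chow replicate 13 at 6.12 CPM. Without either of them Plk3 did not overlap, which brings the count of genes that separated to 7. Asic4 ran from 6.51 to 10.7 CPM in alzheimer and from 8.53 to 18.1 CPM in wildtype (log2 fold change −0.60, 95% interval −0.77 to −0.43). Only female_wildtype_chow replicate 15 at 8.53 CPM and male_wildtype_chow replicate 26 at 10.6 CPM reached down into the alzheimer range, and 8 alzheimer libraries lay above the lowest wildtype value. In the RefSeq table the span of Plk3 overlaps that of Dynlt4, and Rbm20 and Asic4 each overlap 2 long noncoding entries. None of these 5 has a row in the count table, and reads of overlapping genes cannot be told apart without the strand setting.

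The genotype difference was also described within each combination of sex and diet. All 36 estimates, 9 genes in 4 combinations, had the direction of the pooled value. The 6 genes without overlap have none in any subset either. Of the other 3, the libraries of the genotypes did not overlap in 4 of 4 combinations for Plk3, 3 of 4 for Asic4 and 1 of 4 for Rbm20. With so few libraries in a combination, a lack of overlap is reached far more easily than over all 30 libraries. Its share over all genes was not computed, so nothing is read from these counts. Zfp347 varied little beside its size, with log2 fold changes of −1.68 in males on chow, −1.59 in males on the western diet, −1.61 in females on chow and −1.69 in females on the western diet. Tspyl2 had 0.29, 0.38, 0.36 and 0.29 in the same order, and Galnt5 had 3.57, 3.75, 3.04 and 3.11. Asic4 varied most beside its size, at −0.65, −0.80, −0.67 and −0.28, and its interval in females on the western diet reached from −0.66 to 0.099. In that group the alzheimer libraries had 10.2, 9.12 and 10.1 CPM and the wildtype libraries 10.8, 11.3 and 13.6 CPM. Rbm20 in males on chow (0.49, 95% interval −0.078 to 1.07) was the other estimate whose interval held 0. A like direction in every group was part of the choice, so these values are a description.

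**Figure D2:**
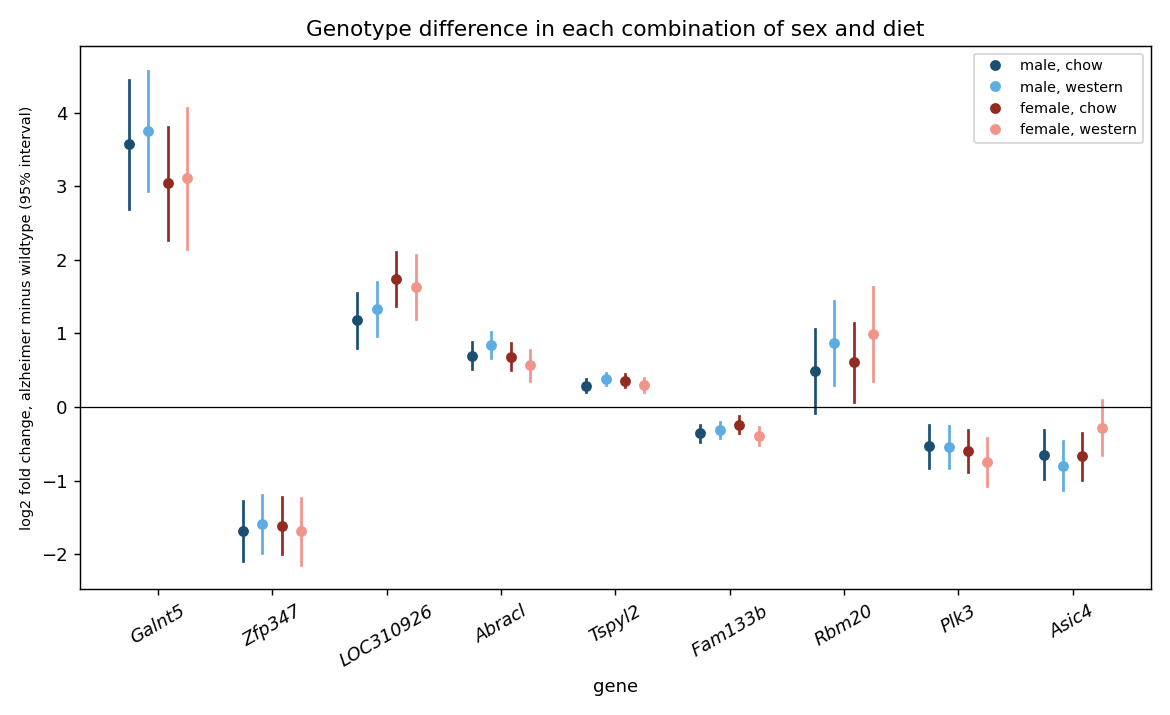
Log2 fold change, alzheimer minus wildtype, with its 95% interval, for the 9 genes in each of the 4 combinations of sex and diet. All 36 points lie on the side of the pooled value; the intervals of Rbm20 in males on chow and of Asic4 in females on the western diet hold 0.

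For LOC310926 alone of the 9 genes, the interval of the female minus male difference in genotype effect lay away from 0. These 9 intervals are not adjusted for their number. The choice of genes used the genotype difference in every group, so they are a description and carry no test. Its log2 fold change was 1.74 in females on chow, 1.63 in females on the western diet, and 1.18 and 1.34 in males. The female minus male difference of these log2 fold changes was 0.43 (95% interval 0.040 to 0.82). Mean levels were 54.0 ± 8.07 CPM in alzheimer and 16.1 ± 1.91 CPM in wildtype for females on chow (SD, n = 4 each). For males on chow they were 43.1 ± 1.75 and 19.2 ± 8.41 CPM (SD, n = 4 each). The male wildtype mean includes replicate 4 at 31.0 CPM. For the other 8 genes this interval held 0, from −0.59 for Galnt5 to 0.25 for Asic4. The western minus chow difference of the genotype effect was between −0.074 for Plk3 and 0.38 for Rbm20, and the interval held 0 for all 9 genes. In edgeR's test of the same contrasts over all 12547 genes, 0 genes were called for genotype by diet (446 at an unadjusted p under 0.05) and 0 for genotype by sex (528 at an unadjusted p under 0.05).

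Fitted apart, the 2 cohorts gave the same direction for all 9 genes, and the value of Galnt5 moved most. In cohort 1 the log2 fold change was 2.98 for Galnt5, −1.71 for Zfp347 and 1.56 for LOC310926, and in cohort 2 it was 3.94, −1.61 and 1.46. Galnt5 wildtype libraries had a median of 0.242 CPM in cohort 1 and 0.138 CPM in cohort 2, and the alzheimer medians were 2.33 and 2.16 CPM. Plk3 differed from −0.49 to −0.71 between cohorts. Its alzheimer and wildtype libraries overlapped in cohort 1, which holds both libraries named above, and not in cohort 2.

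The rule that chose these genes does not use the difference between diets, which could be tested. No diet difference of the 9 genes passed the test. In edgeR 0 of 9 passed (adjusted p from 0.957 to 0.997) and 0 of 9 had an unadjusted p under 0.05, and DESeq2 and limma-voom also called 0 of 9. The background in this contrast is low, with 1 of 12547 genes called (0.00797%), so the absence of calls does not set these genes apart. The intervals give the size a diet difference, as a mean over sex and genotype, could have at this depth. For Tspyl2 the western minus chow difference was 0.012 ± 0.022 on the log2 scale (SE), and its 95% interval reached no further than a 1.04-fold change. Fam133b (−0.030 ± 0.029) was bounded at 1.06-fold, Abracl (0.054 ± 0.047) at 1.11-fold and Plk3 (0.024 ± 0.074) at 1.13-fold. LOC310926, Asic4, Zfp347 and Rbm20 were bounded at 1.16-fold, 1.19-fold, 1.20-fold and 1.23-fold. Galnt5, with its few reads in wildtype, allowed a diet change of up to 1.44-fold with all libraries in the fit. Its diet difference of −0.031 rested on single libraries: it was −0.46 without replicate 12 and 0.13 without replicate 7, and 0.17 in cohort 1 and −0.30 in cohort 2 alone.

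**Figure D3:**
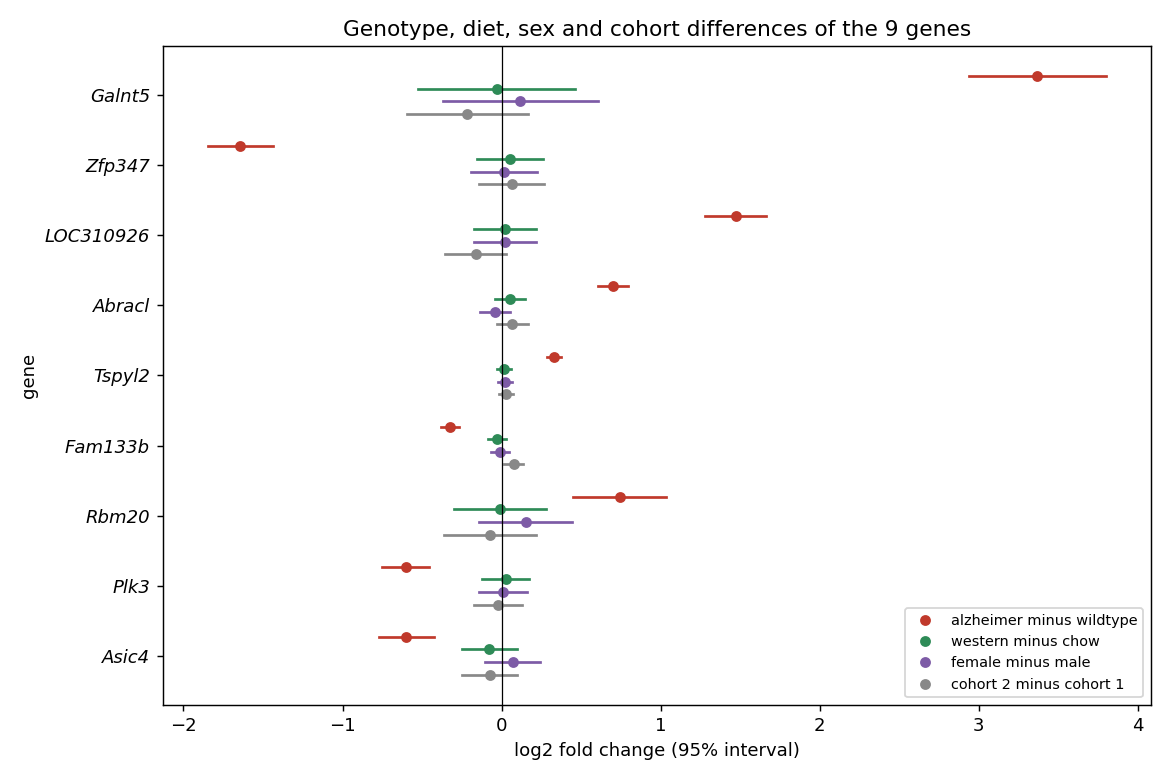
Log2 fold change with its 95% interval of each of the 9 genes for genotype (red), diet (green), sex (purple) and cohort (grey), from a single fit over 30 libraries. The red intervals lie away from 0 for all 9 genes, which were chosen for a large genotype difference. The green and purple intervals hold 0 for all 9, and of the grey intervals only that of Fam133b does not.

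Levels on the 2 diets also overlapped within each genotype, in 18 of 18 pairs of gene and genotype. The share over all genes was not computed, and full separation by diet would be rare for any gene. This overlap thus does not set the 9 genes apart. Abracl medians were 22.9 CPM on chow and 23.9 CPM on the western diet in alzheimer, and 14.1 and 14.3 CPM in wildtype. Asic4 medians were 8.95 and 7.84 CPM in alzheimer and 14.3 and 11.9746 CPM in wildtype. Within wildtype edgeR's adjusted p for diet was 0.980 or more, within alzheimer 1.0 for all 9, within males 0.579 or more and within females 0.754 or more. Again 0 of 9 had an unadjusted p under 0.05 in any of these. The intervals were mostly wider here than for the mean over sex and genotype. On the log2 scale the diet difference of Galnt5 in males reached from −0.53 to 0.92, and that of Rbm20 in wildtype from −0.64 to 0.24. Over all genes, edgeR called 0 for diet within either genotype (653 in wildtype and 488 in alzheimer at an unadjusted p under 0.05), 16 in males (0.128%) and 23 in females (0.183%). The diet effect differed between the sexes for 154 of all genes (1.23%) and for 0 of the 9 (lowest adjusted p = 0.439 by edgeR, lowest unadjusted p = 0.0939).

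Sex and cohort gave no calls among the 9 either. For sex, edgeR's adjusted p ran from 0.675 to 0.980, 0 of 9 had an unadjusted p under 0.05, and DESeq2 and limma-voom called 0 of 9, with 105 of all genes called by edgeR (0.837%). Tspyl2, an X-linked gene, differed between females and males by 0.021 ± 0.022 (95% interval −0.023 to 0.065). Between cohorts 11 of all genes were called (0.0877%). Fam133b was the gene among the 9 with an unadjusted p under 0.05 there, higher in cohort 2 by 0.076 ± 0.029 (edgeR adjusted p = 0.247). Its alzheimer median went from 33.8 CPM in cohort 1 to 35.8 CPM in cohort 2.

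Relatives of the 9 genes by family or pathway were tested for genotype in the same fit, and for diet 0 of them were called in every list. The enzymes of mucin-type O-glycosylation had 3 of 23 tested members higher in alzheimer and 1 lower, besides Galnt5, with a median log2 fold change of 0.027 against 0.0020 over all genes. Over all genes 8.03% were called for genotype, 4.14% higher and 3.89% lower. Gcnt1, which branches O-glycans, rose from 7.03 ± 1.16 to 9.06 ± 1.27 CPM (SD, n = 15 each), by 0.38 ± 0.079 (SE, edgeR adjusted p = 0.00234). Galnt17, of the same enzyme family as Galnt5, rose by 0.11 ± 0.022 (edgeR adjusted p = 0.00130). In cohort 1 alone, 2 of the 26 called relatives and neighbours picked by the naming rule kept their call (Jun and Reps1), and 10 of 26 in cohort 2 alone, with fewer libraries in each. C1galt1, which extends the first sugar, was higher by 0.29 and the sialyltransferase gene St6galnac6 was at −0.072, with calls that ended in 21 and 16 of the 30 fits that leave out a library. Galnt13, a neighbour of Galnt5 on the chromosome as well as a relative, was at 7.27 ± 0.902 against 6.32 ± 1.01 CPM (0.22 ± 0.072, edgeR adjusted p = 0.0504).

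Among 171 tested genes, the others named Zfp together with Trim28 and Setdb1, 2 were higher and 2 lower (2.34% called), with a median of 0.035. Zfp180 fell from 282 ± 15.5 to 257 ± 11.5 CPM, by 0.13 on the log2 scale (edgeR adjusted p = 0.000107). Zfp319 rose by 0.16 ± 0.047 and Zfp532 by 0.078 ± 0.022. Without replicate 18 Zfp319 was at 0.14 and its call ended (edgeR adjusted p = 0.0677), and without replicate 22 Zfp532 was at 0.070 and its call ended (edgeR adjusted p = 0.0575). Zfp423 was at −0.16, with a call that ended in 22 of 30 such fits. No gene of this list thus changed by more than 0.2 on the log2 scale and passed the test. The list was drawn up by symbol, so it need not hold every relative of Zfp347.

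Genes of actin filament turnover had 0 of 21 higher and 3 lower (14.3% called, against 8.03% of all genes), with a median of −0.013. Abracl itself was higher. Pfn1, the actin monomer binder profilin, fell from 318 ± 17.9 to 295 ± 11.4 CPM (−0.11 ± 0.025, edgeR adjusted p = 0.00474). In cohort 2 alone Pfn1 was not called (edgeR adjusted p = 0.153). Twf2, another actin monomer binder, fell by 0.15 on the log2 scale. Without replicate 11 it was at −0.14 and the call ended (edgeR adjusted p = 0.0528). The actin severing gene Cfl1 was at −0.054, with a call that ended in 13 of the 30 fits. Nucleosome assembly genes related to Tspyl2 had 1 of 8 called (12.5%), Tspyl4, which rose by 0.087 ± 0.022 (edgeR adjusted p = 0.0105). In cohort 2 alone Tspyl4 was not called (edgeR adjusted p = 0.0737). Tspyl1 stood at 317 ± 11.2 against 308 ± 20.9 CPM (0.047 ± 0.027, edgeR adjusted p = 0.314).

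Relatives and known splicing targets of Rbm20 had 2 of 23 higher and 0 lower, with a median of 0.029. Their share called, 8.70%, was near the 8.03% of all genes. Ryr2, a calcium release channel, rose from 534 ± 39.2 to 583 ± 48.1 CPM (0.13 ± 0.035, edgeR adjusted p = 0.0173). Lmo7 was at 0.073, with a call that ended in 18 of the 30 fits. Gene counts carry no information on splicing, so the use of exons in these targets was not analysed here. Polo-like kinases and early response genes had 2 of 39 higher and 1 lower (7.69% called, also near the share of all genes), with a median of 0.012. Jun rose from 181 ± 12.2 to 203 ± 8.96 CPM (0.18 ± 0.026, edgeR adjusted p = 1.65e-05) and Fosl2 by 0.29 ± 0.065 (edgeR adjusted p = 0.00440), both on the other side from Plk3. In cohort 2 alone Fosl2 was not called (edgeR adjusted p = 0.0677). Plk5 was at −0.21, with a call that ended in 16 of the 30 fits. Plk2, another Polo-like kinase, was at 271 ± 16.1 against 268 ± 9.17 CPM (0.012 ± 0.024, edgeR adjusted p = 0.836), and Arc and Fos had adjusted p of 0.873 and 0.949 by edgeR. Of the channel genes related to Asic4, 3 of 7 were tested and 0 called. Asic1 differed by −0.0078 ± 0.029, Asic2 by −0.016 ± 0.037 and Scnn1a by 0.19 ± 0.18 (edgeR adjusted p = 0.915, 0.853 and 0.585), and 0 of these 3 had an unadjusted p under 0.05.

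The chromosome neighbours of the 9 genes, which their position fixes, were tested for genotype too. Order was taken from the RefSeq table on GRCr8, where 8 of the 9 genes were found, on 7 chromosomes. LOC310926 was not matched. Around these 8 genes, with 5 tested genes on each side, 9 of 80 neighbours were called for genotype (11.2%), 6 higher and 3 lower, against 8.03% of all genes, and their median was 0.017. Their log2 fold changes lay between −0.20 and 0.42.

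**Figure D4:**
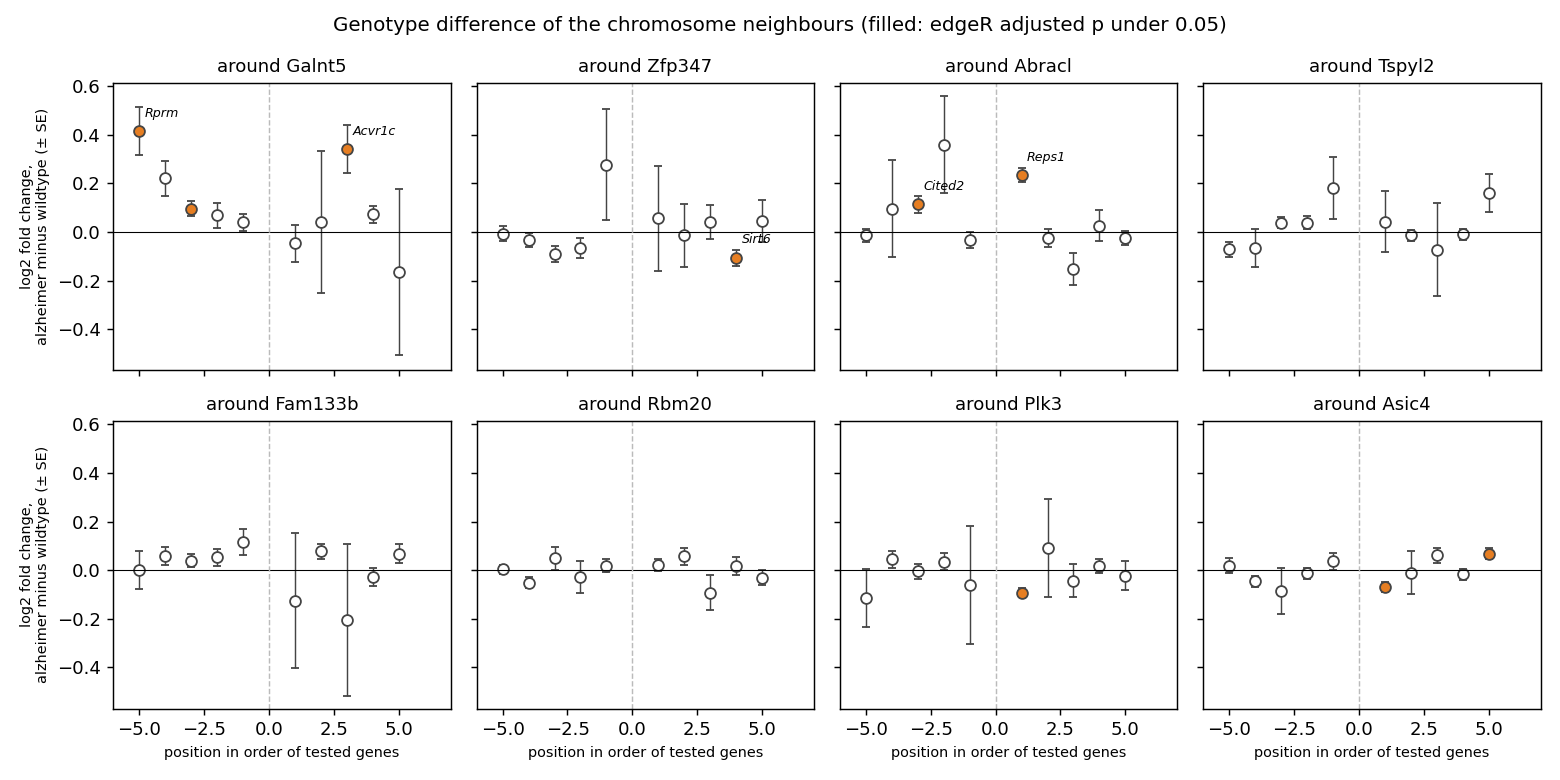
Log2 fold change, alzheimer minus wildtype (± SE), of the 5 tested genes on each side of 8 of the 9 genes, in chromosome order; the dashed line marks the place of the named gene, whose own value is not drawn. Filled points passed edgeR's test at an adjusted p under 0.05, and those of at least 0.1 in size carry their name. Around Galnt5, 3 of 10 are filled, all above 0.

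Galnt5 and Abracl had the neighbours with the largest called values. Around Galnt5, 3 of 10 were called and all 3 were higher. Rprm, a gene of cell cycle arrest, rose by 0.42 ± 0.10 (SE, edgeR adjusted p = 0.00720). In cohort 2 alone, with fewer libraries, Rprm was not called (edgeR adjusted p = 0.328). Acvr1c, an activin type receptor, rose by 0.34 ± 0.098 (edgeR adjusted p = 0.0255). That call ended without replicate 3, 17, 18 or 22 (adjusted p from 0.0553 to 0.0678), and the call of the third, Kcnj3, ended in 16 of 30 such fits. The 2 genes next to Galnt5, Gpd2 and Ermn, were at 0.040 ± 0.035 and −0.047 ± 0.074 (edgeR adjusted p = 0.552 and 0.784), against 3.37 at Galnt5 itself. With 10 genes on each side 6 of 20 were called, again all higher. Sh3glb2, which also separated the genotypes, lies on the same chromosome with 111 tested genes between them. Next to Abracl, Reps1 rose by 0.23 ± 0.029 (edgeR adjusted p = 1.38e-06), while Heca on the other side was at −0.034 ± 0.033 (edgeR adjusted p = 0.588). Further calls were Cited2 near Abracl (0.11), Sirt6 near Zfp347 (−0.10), and Chpf (−0.069) and Epha4 (0.069) near Asic4. These ended in 17, 18, 1 and 22 of the 30 fits, Chpf without replicate 11. Around Tspyl2, Fam133b and Rbm20, 0 of 10 neighbours each were called by edgeR. With 10 genes on each side these counts were 3 of 20 for Tspyl2, all higher, and 1 of 20 each, lower, for Fam133b and Rbm20. Next to Tspyl2, Kantr was at 0.18 ± 0.13 and, 3 places away, Smc1a at 0.038 ± 0.022 (edgeR adjusted p = 0.433 and 0.335).

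The genes most like each of the 9 were ranked by Pearson correlation of log2 CPM over the 30 libraries. These points share the split by genotype, so the genotype difference enters every value. App and Sh3glb2 were among the 3 most like genes for 7 of the 9, with likeness between 0.876 and 0.955 in size. Tspyl2 was the closest to App (0.955), and Zfp347 the closest, in the opposite direction, to Sh3glb2 (−0.952). The third place went to Acly for Galnt5 (0.935) and Zfp347 (−0.905), to Odc1 for Abracl (0.889) and Tspyl2 (0.913), and to Fdft1 for LOC310926 (0.904) and Plk3 (−0.861). For Fam133b the first place went to Gdf3 (−0.906). Rbm20 and Asic4 had other companions. Rbm20 was most like Cdk9 (−0.825), Brpf1 (0.789) and Lin7b (−0.774), and Asic4 most like Hmgcs1 (−0.845), Col18a1 (0.841) and Kcns1 (−0.825).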

How the data were processed

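The samples are 30 polyA RNA libraries. The authors deposited whole-number counts, with a row for each gene symbol, and columns were matched to samples by the name in each description. The submitters' processing notes name cutadapt and STAR 2.7.0a without their roles. Counter, strand setting, build and annotation: not given in the sources used here. Totals ran from 13931152 to 31418405, which sets the precision of low genes such as Galnt5.

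edgeR 4.0.16 (R 4.3.3) fitted a coefficient for each group of sex, genotype and diet, with cohort as a further term. Genes passing filterByExpr (minimum count 10, minimum total 15) were scaled by TMM and tested with the two-sided quasi-likelihood F test. A gene was called at a Benjamini-Hochberg adjusted p under 0.05 over 12547 genes. Main contrasts weight the other factors equally. The SE is the size of the log2 fold change over the root of F, and intervals are 95%. The script was tested on simulated data. No 2 columns were identical. The table of gene names is RefSeq's for GRCr8, and 12486 of the 12547 tested genes were matched in it.

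The members and lists were chosen with earlier results of these data known. Named genes are the 9 members, up to 4 called genes per list and per set of neighbours by size (or the relative with the smallest p), the 3 most like genes and App and Sh3glb2. Galnt13, Tspyl1, Plk2, Arc, Fos, Asic1, Asic2, Gpd2, Ermn, Heca, Kantr and Smc1a were added after their values were seen. A neighbour that the rule picks is counted but not reported here by name. Alternatives were median-of-ratios factors, 2 other filters, DESeq2 1.42.0, limma-voom 3.58.1, no cohort term, either cohort alone and each library left out.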

Additional observations from a re-analysis of the deposited data

Results flagged for a closer look

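Each of the 9 genes was checked for a library far from the other 3 in the 6 groups of 4 libraries, 54 checks in all, by Dixon's test. A single value stood out. Fam133b in male_wildtype_chow replicate 26 was at 49.3 CPM, while the other 3 libraries of the group lay between 42.6 and 43.3 CPM. Chance alone flags about 1 in 20 such groups. The value lies on the far side from the alzheimer libraries, so the separation of Fam133b does not rest on it.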

How the results depend on the processing

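The 9 genes kept the direction of their genotype difference in all 38 alternative fits. The size moved by more than the within-group SD in a single case, Galnt5 in cohort 2 alone (3.94). With each library left out, Galnt5 ran from 3.26 to 3.79 and Zfp347 from −1.69 to −1.59. No diet or sex value of the 9 genes passed the threshold in any of 684 alternative values (lowest adjusted p = 0.487). The number of genes that separated was 6 with median-of-ratios factors and with plain column totals, and 6 to 7 with each library left out. Genes called for genotype numbered 72 in cohort 1 alone and 573 in cohort 2 alone, against 1007, and 817 to 1270 with each library left out. For diet 3 genes were called by DESeq2, 19 in cohort 1 alone and 0 in cohort 2 alone by edgeR, and 1 to 2 with each library left out (2 without replicate 3, 12 or 30). For sex 254 were called without a filter, 241 by DESeq2, 205 by limma-voom and 17 in cohort 2 alone, and from 19 (without replicate 11) to 181 (without replicate 9) with each library left out, the count also moving by over 1.5 times without replicate 2, 3, 6, 7, 10, 13, 15, 17, 18 or 27. The cause of these changes was not tested, beyond the smaller number of libraries in a cohort. Among neighbours 3 of 32 were called with 2 genes on each side and 20 of 160 with 10. Of the 26 called list members and neighbours that the naming rule picks, 11 kept the call with each library left out and 15 lost it without at least 1; the log2 fold change reversed in none. No paired analysis was possible because the labels do not pair any libraries. Depth limits Galnt5 most, with 1 to 9 counts per wildtype library.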
